A study of Mus musculus with 30 samples.

Results

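Of 67624 autosomal peaks of open chromatin in B6 epiblast stem cells (EpiSCs), 569 (0.841%, exact 95% interval 0.774 to 0.913) carried almost no reads in EpiSCs of the strain PWK. Accessibility was measured by ATAC-seq, in which a transposase cuts open DNA, as counts over 1 shared set of 181059 peaks, 176428 of them on chromosomes 1 to 19. A peak was taken as open in B6 when it had at least 2 counts per 1e6 counts of its library (CPM) in each of the 4 B6 EpiSC libraries, and such peaks are called B6-open. PWK-absent peaks are the B6-open peaks with at most 3 counts in each of the 2 PWK libraries. With 1 library left out of the rule the number was 895 (B6 44), 950 (PWK BioRep698), 1377 (the other PWK library) or 646 to 710 (B6 1, 4 or 51). These values chose the peaks, so the difference between B6 and PWK in accessibility is a description and was given no test. The reads were aligned to mm10, per the submitters' processing notes, which is an assembly of C57BL/6J. From counts alone, closed chromatin in PWK, a sequence that PWK lacks and PWK reads that did not align cannot be told apart.

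EpiSCs resemble the epiblast shortly before gastrulation and are pluripotent; here they grew on feeders in medium with Fgf2, ActivinA and the Wnt inhibitor NVP-TNKS656. The strains were C57BL/6 (B6), PWK/PhJ (PWK), DBA/2J (DBA) and a B6.129 F1 cross, all untreated and at passages 5 to 10. ATAC-seq covered 4 B6, 2 PWK and 1 DBA EpiSC libraries and 4 libraries of B6 definitive endoderm (DE), which was made from EpiSCs with CHIR99201 and Activin A followed by Activin A and LDN193189, and sorted for CXCR4. RNA-seq covered 5 B6, 3 PWK, 3 B6.129 F1 and 1 DBA EpiSC libraries. The labels do not say whether the replicate numbers are separate lines, so p-values measure the spread between these samples, which may be technical. For 1 PWK library of each assay, and 1 F1 library, the column name matched no replicate of the labels, and the strain in that name gave its group; it is called the unnumbered one.

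Open chromatin marks promoters, where transcription starts, and distal elements such as enhancers, which bind transcription factors and are often open in 1 cell state only. PWK is an inbred strain derived from wild mice of another subspecies, whereas B6 and DBA are classical laboratory strains. Strain differences in open chromatin can follow single bases in factor binding sites, inserted or lost stretches such as transposable elements, and copy number of gene clusters, of which the vomeronasal receptors, the histocompatibility genes and the interferon-induced genes are known for variation among mouse strains.

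The PWK-absent peaks were mostly away from promoters, and 13 of the 569 overlapped a promoter window of the RefSeq table (250 bases before to 50 after a start site, GRCm38.p6), 14 windows in all. That source holds promoters on 18 autosomes, where 553 of the 569 peaks lie, so the others could overlap none. The 250 bases before the start are shown for the 6 windows in which the peak covered at least 171 of them, since sequence was at hand for promoter windows only and these lie mostly inside the peaks. Capitals mark the bases inside the peak, and each sequence reads 5′ to 3′ on the strand of the gene.
D830030K20Rik: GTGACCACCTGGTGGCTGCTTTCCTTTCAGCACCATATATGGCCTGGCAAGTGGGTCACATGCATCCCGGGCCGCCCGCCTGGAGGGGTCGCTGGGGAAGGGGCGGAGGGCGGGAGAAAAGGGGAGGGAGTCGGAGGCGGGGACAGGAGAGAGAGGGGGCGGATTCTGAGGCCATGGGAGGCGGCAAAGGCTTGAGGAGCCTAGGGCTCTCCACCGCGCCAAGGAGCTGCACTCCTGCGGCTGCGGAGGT
Gm3739: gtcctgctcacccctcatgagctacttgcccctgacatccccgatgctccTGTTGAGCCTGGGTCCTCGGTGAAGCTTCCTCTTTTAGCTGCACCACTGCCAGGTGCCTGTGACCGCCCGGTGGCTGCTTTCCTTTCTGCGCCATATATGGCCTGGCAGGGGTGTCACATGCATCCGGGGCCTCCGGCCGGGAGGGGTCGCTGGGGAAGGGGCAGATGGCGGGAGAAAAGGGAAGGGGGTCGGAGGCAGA
4930432O09Rik: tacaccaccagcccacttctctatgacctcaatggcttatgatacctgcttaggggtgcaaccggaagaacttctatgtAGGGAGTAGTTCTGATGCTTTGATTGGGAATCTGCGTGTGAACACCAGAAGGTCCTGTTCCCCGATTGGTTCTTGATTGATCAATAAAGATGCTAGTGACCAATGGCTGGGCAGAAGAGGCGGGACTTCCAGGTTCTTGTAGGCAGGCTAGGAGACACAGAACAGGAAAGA
Gm42000: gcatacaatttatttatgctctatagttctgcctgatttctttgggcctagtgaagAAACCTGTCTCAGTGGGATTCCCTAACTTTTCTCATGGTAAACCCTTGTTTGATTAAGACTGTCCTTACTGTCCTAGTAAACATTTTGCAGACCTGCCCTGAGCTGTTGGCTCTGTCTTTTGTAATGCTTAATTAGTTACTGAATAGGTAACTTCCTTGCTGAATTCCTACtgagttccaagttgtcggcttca
Gm39066: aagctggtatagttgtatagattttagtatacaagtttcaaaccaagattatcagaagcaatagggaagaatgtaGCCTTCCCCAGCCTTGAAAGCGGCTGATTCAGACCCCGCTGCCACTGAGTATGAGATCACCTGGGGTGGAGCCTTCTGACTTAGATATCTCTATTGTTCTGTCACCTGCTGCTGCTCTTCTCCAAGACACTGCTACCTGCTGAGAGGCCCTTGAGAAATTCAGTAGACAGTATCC
Gm9631: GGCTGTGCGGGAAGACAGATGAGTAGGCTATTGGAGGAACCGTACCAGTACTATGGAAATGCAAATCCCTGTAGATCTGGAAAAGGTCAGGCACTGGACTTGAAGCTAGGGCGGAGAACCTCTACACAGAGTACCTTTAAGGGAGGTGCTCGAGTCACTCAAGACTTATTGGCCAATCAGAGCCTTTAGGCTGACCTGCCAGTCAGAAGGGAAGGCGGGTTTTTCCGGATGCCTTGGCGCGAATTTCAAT
They lie at chr14:3208243-3208492 (plus strand), chr14:7315246-7315495 (minus), chr10:121202650-121202899 (minus), chr3:15055845-15056094 (plus), chr7:108184354-108184603 (plus) and chr11:121925329-121925578 (minus). The windows of D830030K20Rik and Gm3739 share 31 of 239 words of 12 bases, and their longest shared stretch is 23 bases. Both hold many CG pairs, 14 and 11, against a median of 6 over all promoter windows of this length and of 4.5 over the 14. The motif CCAAT, searched on both strands, was in 6 of the 14 windows (42.9%) and in 33.8% of all such windows, and TATAAA in 1 (7.14%) and 12.4%. Of the 6 genes shown, 2 were tested for RNA. D830030K20Rik was lower in PWK, with 2.41, 0.993, 1.77, 0.335 and 2.08 CPM in B6 replicates 1, 2, 4, 44 and 51 and 0.112, 0.0336 and 0.317 in PWK BioRep698, BioRep695 and the unnumbered library (log2 change -3.29, SE 0.77, Benjamini-Hochberg adjusted p = 0.0093 from the quasi-likelihood test of edgeR). Gm3739 was not called (log2 change -0.51, SE 0.32, adjusted p = 0.252). Reads of near-identical copies can be split between genes, so both levels are uncertain.

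Library totals in the EpiSC peak table ran from 4256551 counts in B6 44 to 9571127 in B6 4, so 3 counts stood for 0.527 CPM in PWK BioRep698 and 0.358 CPM in the unnumbered PWK library, and RNA totals from 24529054 to 29947841. RNA of the EpiSC markers Pou5f1, Fgf5 and Dnmt3b was high in all 12 RNA libraries, and of the 5 naive markers Zfp42 and Dppa3 were at or near 0, whereas Klf4 reached 8.11 CPM in B6 and 8.66 in PWK, Tbx3 4.71 and 3.73, and Klf2 2.99 and 2.94. The other EpiSC markers Sox2, Nanog, Otx2 and Cdh1 were at 36.2 CPM or more in every library. Endoderm markers varied: Cer1 ran from 3.66 to 169 CPM in B6, Foxa2 from 16.8 to 51.0, Gata6 from 1.27 to 16.3 and Sox17 from 0.636 to 9.82. In PWK they reached 45.2, 60.1, 4.88 and 4.54 CPM, and in DBA they were at 26.2, 88.6, 8.69 and 3.05. None of the 7 feeder fibroblast markers was at 0. Their summed level was 51.1 to 2419 CPM in B6, 1979 to 2825 in PWK, 116 to 178 in F1 and 1297 in DBA.

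The ATAC library labelled B6 44 stood apart from the other B6 libraries and shared part of the DBA pattern. Of the 21 pairs of the 7 EpiSC libraries, 17 had no autosomal peak that was at most 2 counts in both and at least 3 CPM in the other 5 libraries, nor the reverse. The pair of PWK libraries had 249 peaks absent and 65 peaks open in that pair alone, the pair of B6 44 and DBA had 32 and 7, and 2 further pairs had 1 absent peak each. Of 50 peaks open in DBA and absent from B6 1, 4 and 51, 32 had at least 2 CPM in B6 44 (64%, exact 95% interval 49.2 to 77.1). None of the 5 or 6 such peaks for each other B6 library did. With so few peaks, the exact upper limits were 52.2% (B6 1), 45.9% (B6 4) and 52.2% (B6 51). Those few peaks also had to be absent from B6 44, which removes any that it shares with DBA. In the other direction, 377 peaks were absent from DBA and open in B6 1, 4 and 51. Of these, 99 were absent from B6 44 (26.3%, exact 95% interval 21.9 to 31.0). The same counts for B6 1, 4 and 51, each against the other B6 libraries, were 0 of 143, 0 of 212 and 2 of 332. For the RNA library of the same number too few genes qualified to tell whether it has the pattern. There were 6 genes with at most 3 counts in DBA and at least 2 CPM in the other B6 libraries. None of them was at or under 3 counts in B6 44. Of 4 genes with the reverse pattern, 1 had 2 CPM or more there. Whether this library holds B6 material only was not tested, and B6 44 below means the library so labelled. Counts and shares of the PWK-absent peaks are given below with and without it in the rule, and values of single peaks and runs for each library.

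Peaks absent from PWK were weak to moderate in B6. Their mean B6 level had a median of 4.52 CPM (quartiles 3.59 and 6.64), against 6.72 CPM over all B6-open peaks, and their median width was 163 bp against 199 bp. The share of B6-open peaks absent from PWK was 1.54% (337 of 21853) at a mean of 2 to 5 CPM, 0.738% (181 of 24539) at 5 to 10 CPM and 0.240% (51 of 21232) above that. The rule favours weak peaks, since its PWK limit is a fixed count, which they meet at a smaller fold difference than strong ones. So these levels and shares describe the chosen peaks and cannot be told apart from the effect of the rule. In PWK, 213 of the 569 (37.4%) had 0 counts in both libraries, and for 76 the higher PWK count was 3. Just outside the limit, 307 B6-open peaks had a higher PWK count of 4, with a median B6 level of 4.63 CPM against 4.14 for those at 3. At the B6 limit, 40 of the 569 had a lowest B6 value under 2.1 CPM, and 18 peaks just outside had one of 1.9 to 2 CPM. Without B6 44 in the rule, the median B6 level was 4.23 CPM against 6.27, the share at 0 counts in both PWK libraries 36.1%, and the shares by level 2.15%, 0.927% and 0.294%.

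The strongest PWK-absent peak lay on chromosome 17 (chr17:91916410-91916627), 103898 bp from the nearest gene, Gm24244. It had 27.5, 33.1, 24.4 and 41.5 CPM in B6 1, 4, 44 and 51, 44.0 CPM in DBA, and 0 and 0.239 CPM in PWK BioRep698 and the unnumbered library. The peak on chromosome 9 (chr9:4117338-4117573, 21291 bp from Gm45957) had 29.3, 31.6, 27.3 and 29.3 CPM in the B6 libraries, 35.3 CPM in DBA and 0 counts in both PWK libraries, at least 66.3-fold higher in B6 than the mean floor of 3 counts per PWK library. Within Atg5, which encodes a protein of autophagosome formation, the peak at chr10:44315335-44315667 had 24.2, 30.3, 32.9 and 29.1 CPM in B6 and 38.5 CPM in DBA, and 3 and 2 counts in PWK. In all 3 the B6 and DBA libraries were high and both PWK libraries were at the floor.

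The other 5 of the 8 strongest lay near Hmgb1l (chr6:131609952-131610337), Rp1 (chr1:3953640-3953894), Gm19855 (chr8:44040471-44040765) and Gm18124 (chr7:11500946-11501305), and within Cast (chr13:74787759-74788109), the gene of calpastatin, which inhibits calpain proteases. Their mean B6 levels were 28.5 CPM ± 9.42, 26.6 ± 6.78, 25.4 ± 1.17, 23.3 ± 3.65 and 21.3 ± 3.5 (SD, n = 4). Their DBA values were 20.4, 34.0, 29.3, 20.4 and 21.6 CPM, and no PWK library had more than 2 counts. DBA was thus at least at the level of the lowest B6 library at all 8. Whether starts in the peak names count from 0 or 1 is not given in the sources used here.

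**Figure D1:**
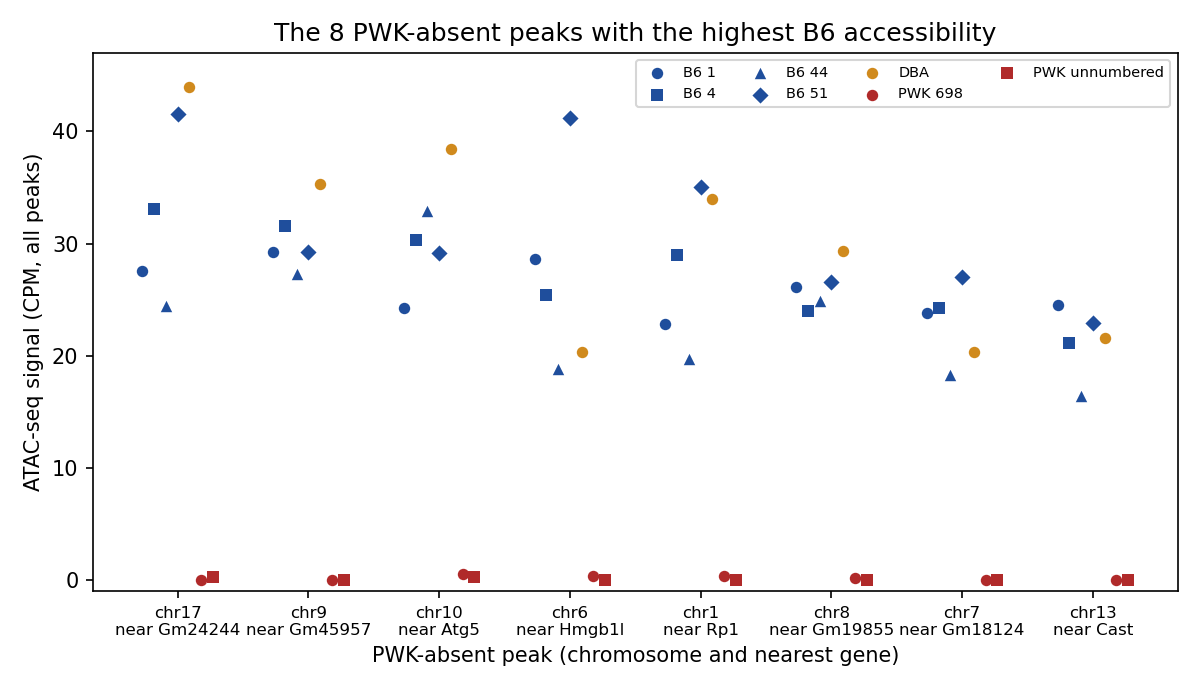
ATAC-seq signal in CPM (vertical axis) of the 8 PWK-absent peaks with the highest mean B6 level (horizontal axis, by chromosome and nearest gene), 1 point per EpiSC library. The B6 (blue) and DBA (orange) points lie between 16.4 and 44.0 CPM, and the PWK points (red) at or below 0.527 CPM, which the choice of the peaks fixes.

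In DBA, the peaks absent from PWK were open about as often as other B6-open peaks. DBA was at or under 3 counts at 6 of the 569 (1.05%, exact 95% interval 0.388 to 2.28), against 1.12% of all B6-open peaks. It reached 2 CPM at 519 (91.2%), against 91.4%. The median log2 ratio of DBA to the B6 mean (0.1 CPM added to both) was 0.12, against 0.02. The ratio was under -1 at 38 peaks (6.68%), against 9.74% of B6-open peaks, and over 1 at 23 (4.04%), against 1.29%. The 2 sets differ in B6 level, with medians of 4.52 and 6.72 CPM, and the DBA shares were not computed by level. With 1 DBA library there was no test, and the intervals here and below cover counting error only.

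This near-equality depended on which libraries the rule used. The share at or under 3 counts in DBA was 3.20% without the unnumbered PWK library and 0.947% without PWK BioRep698. Both settings leave the B6-open peaks and their 1.12% as they were. With a B6 minimum of 1 CPM the share was 3.25%, and that of all peaks then open was not computed. The share moved most without the library labelled B6 44. With B6-open defined by B6 1, 4 and 51 alone, 895 peaks were absent from PWK, and DBA was at or under 3 counts at 108 of them (12.1%, exact 95% interval 10.0 to 14.4), against 1.77% of the 74817 peaks then B6-open. Of the 326 added peaks, 102 (31.3%) were at or under 3 counts in DBA. At these 102 the median level was 3.91, 3.87 and 4.07 CPM in B6 1, 4 and 51, 0.470 CPM in B6 44 and 0 in DBA and both PWK libraries. Leaving out B6 1, 4 or 51 in turn added 80, 77 and 141 peaks, of which 0, 1 and 6 were at or under 3 counts in DBA, and the share was then 0.924%, 1.08% and 1.69%. Over the peaks then B6-open it was 1.15%, 1.64% and 1.89%. A high B6 44 value is part of the rule, and it removes peaks that DBA and PWK both lack in these libraries. In the peak table that holds the B6 DE libraries, 103 peaks overlapped these 102, and the DE library numbered 44 had a median of 1.01 CPM there, within the 0.937 to 1.11 CPM of the other 3 DE libraries. DE 2, 4, 44 and 51 were low there, with 40, 25, 30 and 38 of the 103 at or under 3 counts. Such low levels leave little room for a difference, so no likeness of DE 44 to the others can be read from them.

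**Figure D2:**
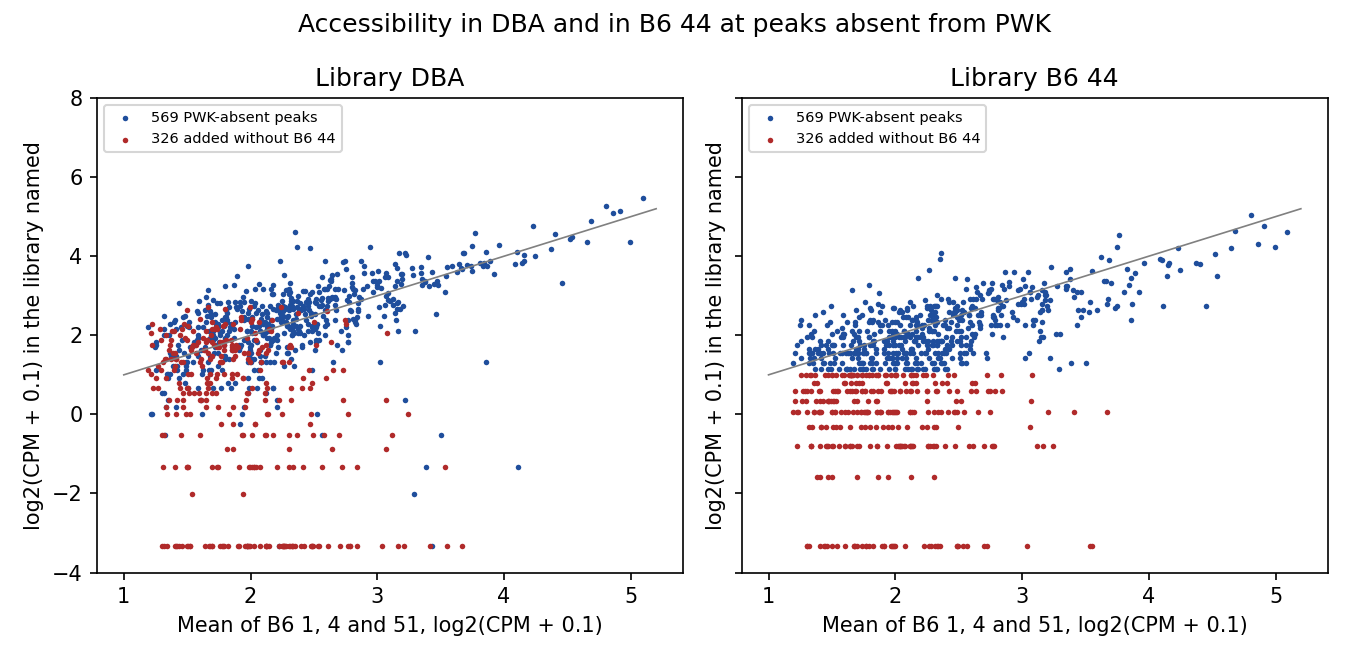
Each point is a peak absent from PWK, with the mean of B6 1, 4 and 51 on the horizontal axis and the DBA library (left) or the library labelled B6 44 (right) on the vertical axis, both as log2(CPM + 0.1). Blue points are the 569 PWK-absent peaks and red points the 326 added without B6 44, whose low B6 44 values are fixed by their choice, and the grey line marks equality. In the left panel 102 of the red points and 6 of the blue ones are at or under 3 counts in DBA.

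Of the 6 PWK-absent peaks also at or under 3 counts in DBA, 5 are described here, within Urb1 (chr16:90779835-90780103), Alg14 (chr3:121333663-121333912), Npas1 (chr7:16467462-16467631), Zfp455 (chr13:67195476-67195612) and Pex14 (chr4:149055992-149056109). The strongest was the one in Urb1, a gene of ribosome biogenesis, with 17.4, 27.7, 6.58 and 6.50 CPM in B6 1, 4, 44 and 51, 0.299 CPM in DBA and 0 in both PWK libraries. The peak in Alg14, a gene of protein N-glycosylation, had 8.92, 10.4, 2.35 and 11.7 CPM in B6 and 0.299 CPM in DBA. In PWK that peak had 0 (BioRep698) and 0.119 CPM. B6 44 was the lowest B6 library at 5 of the 6, all but the one in Urb1, and DBA was below all B6 libraries at all 6.

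Peaks absent from PWK lay far from genes more often than B6-open peaks did. Their centre was within 500 bp of a start site for 15 of 553 (2.71%, on the 18 autosomes with promoters in the RefSeq table), against 19.6% of B6-open peaks, and more than 50 kb away for 35.4%, against 21.8%. It was within the span of a gene for 255 of 569 (44.8%), against 60.5%. Among peaks of 2 to 5 CPM in B6 the share within 500 bp of a start was 3.08% against 9.51%, and none of the 49 peaks of 10 CPM or more was there, against 35.9%. Without B6 44 in the rule, 2.29% (20 of 872) were within 500 bp of a start against 18.5%, 35.9% over 50 kb away against 22.8%, and 46.1% in a gene span against 60.1%. By named families, 4 of 34 B6-open peaks within 10 kb of interferon-induced and GTPase genes were absent from PWK (11.8%), against 0.841% of all B6-open peaks. The genes beside these 4 were Ifi208, Ifi214, Ifi27, Ifi27l2a and Ifi27l2b, and 2 of the 4 were an adjacent pair at Ifi27l2a. The counts were 5 of 80 near vomeronasal receptors (6.25%) and 6 of 177 near olfactory receptors (3.39%). Near genes of the natural killer receptor list it was 3 of 50 (6%), these 3 beside Clec18a, Clec2e and Clec4f. Near H2 genes it was 2 of 81 (2.47%) and near Zfp zinc finger genes 5 of 1106 (0.452%). The other 7 of the 13 families had none, among them cytochrome P450 genes with 118 B6-open peaks, protocadherins with 74 and keratins with 68. Without B6 44 the 6 shares were 15.4%, 6.54%, 5.12%, 7.02%, 3.30% and 0.763%, against 1.20% of all B6-open peaks, and 1 of 40 near Nlrp, Naip and Nlrc genes was absent. These counts are small, and the families were described without a test.

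Peaks absent from PWK lay next to each other more often than their overall share. Of the 1135 B6-open peaks that flank them on either side, 56 were also absent from PWK (4.93%, exact 95% interval 3.75 to 6.36), against 0.841% of all B6-open peaks. The share was 18.2% (14 of 77) for flanking peaks under 1 kb away, 7.27% (20 of 275) at 1 to 10 kb, 2.39% (10 of 418) at 10 to 50 kb and 3.29% (12 of 365) beyond. Flanking peaks that did not meet the rule had a log2 ratio of PWK to B6 under -1 in 18.8% (203 of 1079), against 9.47% of all B6-open peaks outside the rule, and within 5 kb in 27.9% (50 of 179). Without B6 44 the flanking share was 6.27% (112 of 1785). Each adjacent pair is counted from both sides, so the interval, which takes the counts as independent, is too narrow. Neighbouring peaks can also share reads of 1 fragment.

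**Figure D3:**
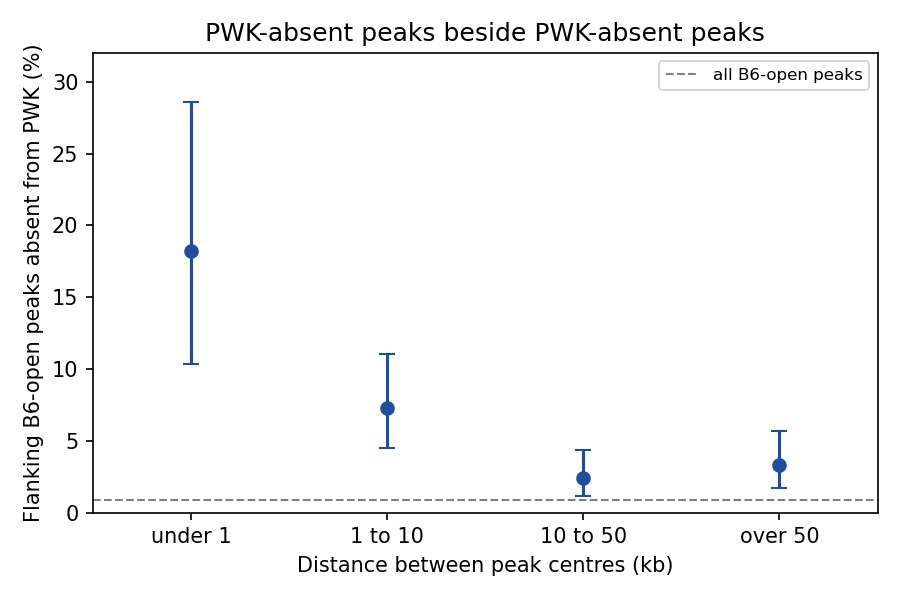
Share of flanking B6-open peaks that are themselves absent from PWK (vertical axis, percent) by the distance between peak centres (horizontal axis, kb), with exact 95% intervals for counting error. The intervals are too narrow, since each adjacent pair is counted from both sides. The points are at 18.2% under 1 kb, 7.27% at 1 to 10 kb, 2.39% at 10 to 50 kb and 3.29% over 50 kb, above the dashed line at 0.841% for all B6-open peaks.

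Most PWK-absent peaks stood alone all the same, since 520 of the 569 had no PWK-absent peak as the next B6-open one, and 49 (8.61%) formed 18 runs of 2, 2 runs of 4 and 1 run of 5. Without B6 44 in the rule, 96 of 895 (10.7%) were in runs, the longest of 7. The run of 5 (chr17:36154858-36178290) spanned Gm8909, 2410017I17Rik and Gm6659 in the histocompatibility complex beside H2-T3, a class I gene. Over the 9 peaks of any level in this span, B6 1, 4, 44 and 51 had 235, 442, 166 and 276 counts, DBA 371, and PWK BioRep698 and the unnumbered PWK library 9 and 2. The 1 Mb window around it held 7 PWK-absent peaks of 49 B6-open ones, the most of any of the 2369 windows with a B6-open peak, and 10 without B6 44 in the rule, again the most.

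The run at chr7:108184429-108197249 lay in and beside Gm39066, whose promoter is shown above, and Gm18944. Its 7 peaks of any level had 352, 361, 150 and 584 counts in B6, 346 in DBA, and 3 and 2 in PWK. The run at chr13:119840119-120232912 had 4 PWK-absent peaks around Tcstv1, a gene known from 2-cell-stage embryos, and a set of gene models. Its 42 peaks of any level had 213, 336, 112 and 285 counts in B6, 249 in DBA and 17 and 15 in PWK, and in the window from 120 to 121 Mb all 3 B6-open peaks were absent from PWK. Of the 18 runs of 2, those with the highest mean B6 level lay at Ralyl (chr3:14001883-14124206) and between the vomeronasal receptors Vmn2r25 and Vmn2r26 (chr6:123858084-124021143), with 204, 239, 109 and 211 counts in B6 against 35 and 21 in PWK, and 243, 368, 104 and 264 against 18 and 16. Per library size, DBA lay between the B6 libraries in 4 of the 5 runs, and above them in the run on chromosome 17, with 55.5 CPM against 36.8, 46.2, 39.0 and 40.8. By chromosome, the share ran from 0.575% (17 of 2956) on chromosome 15 to 1.28% (37 of 2894) on chromosome 13, with exact 95% intervals of 0.335 to 0.919 and 0.902 to 1.76. Without B6 44 it ran from 0.583% on chromosome 15 to 1.65% on chromosome 17.

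RNA of genes near the PWK-absent peaks was more often lower than higher in PWK. RNA was not used to choose the peaks. Of 570 genes within 10 kb, 373 were in the RNA table by Ensembl identifier or symbol and 256 passed the filter on low counts, which are not all the neighbours. Of these 256, 56 were lower in PWK (21.9%) and 18 higher (7.03%) by the same edgeR test with a threshold of 0.05 on the adjusted p. Over all 14822 genes tested, 14.5% were lower and 12.0% higher, and over genes within 10 kb of any B6-open peak 14.9% and 10.7%. The median log2 change was -0.15, against -0.01 over all genes and -0.02 near B6-open peaks. The difference between these shares was not tested. Libraries of the 2 strains did not overlap for 60 genes lower and 28 higher, together 34.4%, against 32.1% of all genes and 30.9% near B6-open peaks. There were 37 genes lower and 12 higher without PWK BioRep695, 37 and 13 without PWK BioRep698, and 60 and 29 without B6 51. The shares over all genes in these refits were not computed, so whether the excess of lower calls changed cannot be told. With peaks chosen without B6 44, 81 of 393 genes were lower (20.6%) and 32 higher (8.14%), against 14.9% and 10.8% near the peaks then B6-open. In bulk RNA, fewer cells that express a gene, less RNA per cell and PWK reads that did not match the reference cannot be told apart.

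Of the genes with a mean log2 CPM of at least 1 and no gene model name, the largest fall was that of Ifi27l2a (ENSMUSG00000079017, chr12:103433873-103443680), an interferon-inducible gene with 2 adjacent PWK-absent peaks at its end. It had 3.28, 3.49, 3.20, 3.49 and 1.96 CPM in B6 1, 2, 4, 44 and 51 and 0.0744, 0.303 and 0.159 in PWK BioRep698, BioRep695 and the unnumbered library (CPM of the TMM-scaled library size). The change in PWK was -4.06 in log2 units, with an SE of 0.44 and an adjusted p of 8.19e-05 in edgeR, and all PWK libraries were below all B6 ones. The DBA level was 2.21 CPM of total counts, below the B6 mean by 0.46 on the log2 scale. Ifi27 overlaps Ifi27l2a on this assembly, so reads may be shared. At the peak chr12:103443642-103443815, B6 1, 4, 44 and 51 had 8.92, 8.15, 4.70 and 8.13 CPM, DBA 7.33 and both PWK libraries 0.

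Fam19a4 (ENSMUSG00000046500), which encodes a secreted chemokine-like protein, had 3.76, 2.14, 3.05, 4.73 and 3.85 CPM in B6 and 0.335, 0.303 and 0.397 in PWK (log2 change -3.33, SE 0.33, adjusted p = 4.60e-05 in edgeR). DBA was higher than B6 there, at 10.3 CPM. Pabpc4 (ENSMUSG00000011257), a cytoplasmic poly(A)-binding protein, was the most abundant of the named genes, with 358, 525, 393, 443 and 521 CPM in B6 and 106, 102 and 125 in PWK (log2 change -2.01, SE 0.15, adjusted p = 4.49e-06). DBA had 507 CPM. The PWK-absent peak beyond its end (chr4:123300254-123300349) was weak, with 2.03, 2.30, 2.11 and 5.62 CPM in B6 and 5.09 in DBA. For Pabpc4 DBA lay among the B6 libraries and PWK below all of them.

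The other 7 named genes that fell were Dpp6, an auxiliary subunit of potassium channels, by 2.24 on the log2 scale, Sntb1, a syntrophin of the dystrophin complex, by 2.22, Osbpl6, an oxysterol-binding protein gene, by 1.44, Ank2, the membrane adaptor ankyrin-B, by 1.33, Vwa2 by 1.28, Chd5, a chromatin remodeller, by 1.23 and Ccdc138 by 1.19. Their SE ran from 0.19 to 0.50 and their adjusted p from 0.000275 to 0.00942. Without PWK BioRep695, Ank2 fell by 1.22 with an adjusted p of 0.0531. Osbpl6 and Chd5 were also low in DBA, with log2 ratios to the B6 mean of -1.52 and -1.04. Gm8909, spanned by the run in the histocompatibility complex and with 6 PWK-absent peaks within 10 kb, had 1.9, 1.15, 1.43, 1.38 and 3.38 CPM in B6 and 0.0372, 0.135 and 0.0397 in PWK (log2 change -4.59, SE 0.63, adjusted p = 0.000379), and 7.80 CPM in DBA. Class I genes have near-identical copies, so its level is uncertain.

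Only 7 genes met the rule for named rises. Ryr2 (ENSMUSG00000021313), the calcium release channel of the endoplasmic reticulum in heart and brain, held 3 PWK-absent peaks within its span, and the window from 11 to 12 Mb of chromosome 13 around them had 4 of 14. Its RNA was 2.22, 0.834, 0.883, 1.24 and 0.846 CPM in B6 and 5.58, 4.91 and 4.56 in PWK (log2 change 2.06, SE 0.37, adjusted p = 0.00245 in edgeR). Parp14, an ADP-ribosyltransferase, had 6.89, 12.4, 8.42, 8.35 and 15.2 CPM in B6 and 23.5, 53.5 and 37.2 in PWK (1.89, SE 0.49, adjusted p = 0.0166), and without PWK BioRep695 its adjusted p was 0.0798. Chn2, a GTPase-activating protein for Rac, rose by 1.48 and Ankrd6, a Wnt pathway protein, by 0.99. The RNA helicase gene Mov10 (0.62), Mccc2 of leucine breakdown (0.51) and Dpy19l3, a protein mannosyltransferase gene (0.40), rose less, and each lost its call without PWK BioRep695, with adjusted p of 0.137, 0.0620 and 0.128. Without the unnumbered PWK library Mov10 (0.106), Mccc2 (0.0910) and Dpy19l3 (0.0776) were lost too. Dpy19l3 was further lost with only B6 and PWK in the fit (0.0559) and without B6 2 (0.0551), B6 4 (0.0513), B6 44 (0.0603) or PWK BioRep698 (0.0823). So genes with a PWK-absent peak within 10 kb changed in both directions.

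B6 51, with a feeder marker sum of 2419 CPM that lies within the PWK range, was on the B6 side for all 17 named genes, which the rule of no overlap fixes. Among the 256 genes, DBA RNA had a log2 ratio to the B6 mean under -1 for 17 and over 1 for 13, against 6.69% and 4.04% of all genes tested and 6.22% and 3.24% of those within 10 kb of a B6-open peak. The part of the feeders in the RNA differences was not tested.

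**Figure D4:**
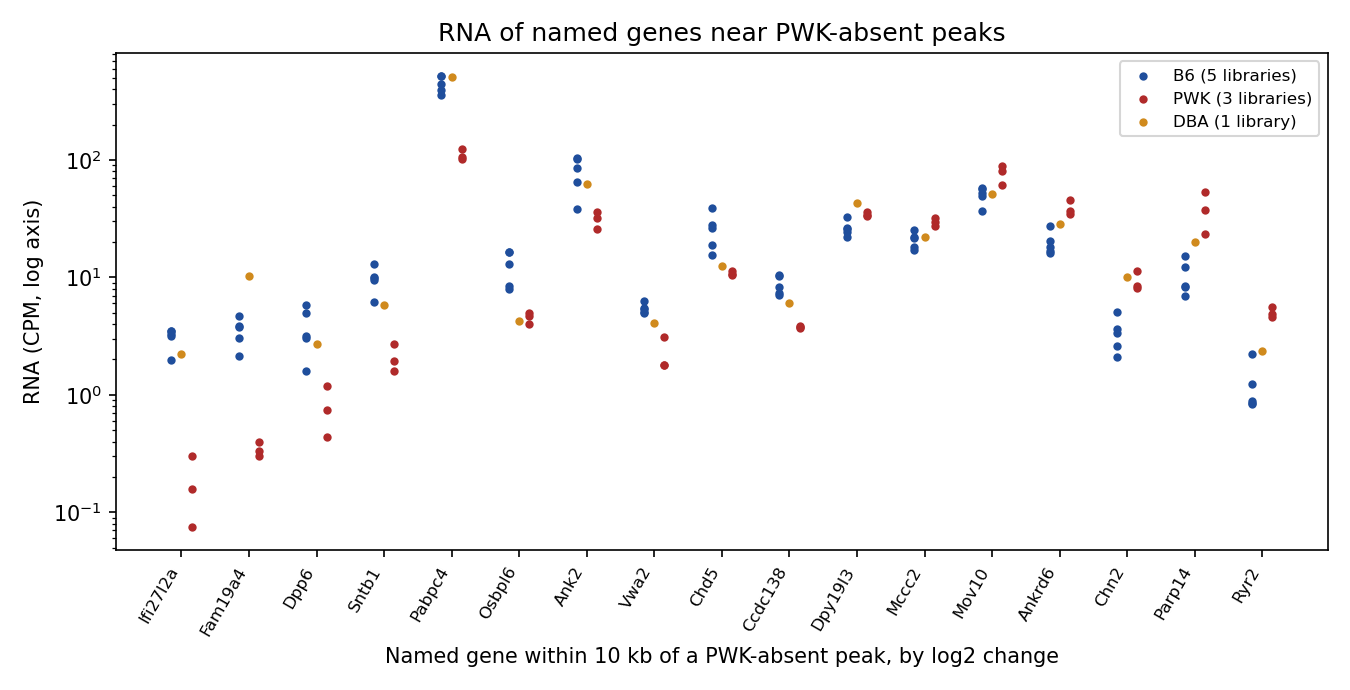
RNA in CPM (vertical axis, log scale) of the 17 named genes within 10 kb of a PWK-absent peak (horizontal axis, ordered by log2 change), 1 point per library, with CPM of the TMM-scaled library size for B6 and PWK and of total counts for DBA. PWK (red) lies below all B6 libraries (blue) for the 10 genes from Ifi27l2a to Ccdc138 and above them for the 7 from Dpy19l3 to Ryr2, as their choice requires.

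Of 72 genes in lists of primed and naive pluripotency, endoderm, signalling and DNA methylation, 3 had one within 50 kb, and 3 of the 710 B6-open peaks near listed genes were absent from PWK (0.423%, exact 95% interval 0.0872 to 1.23, which holds the 0.841% of all B6-open peaks). Without B6 44 in the rule it was 5 of 752 (0.665%). The peak at chr17:35485744-35486028 lay 20146 bp from Pou5f1, the gene of the pluripotency factor Oct4, with 9.86, 16.4, 10.3 and 10.9 CPM in B6, 13.9 in DBA and 3 counts in each PWK library. RNA of Pou5f1 was 1024, 1387, 1055, 1021 and 1356 CPM in B6 and 1315, 1311 and 1484 in PWK, and was not called (log2 change 0.23, SE 0.11, adjusted p = 0.161 in edgeR). Another lay 26683 bp from Zfp42, the naive marker Rex1, which had almost no RNA in any EpiSC library. A further one lay 31838 bp from Morc3, whose RNA was not called (adjusted p = 0.732), with 11.4 to 59.1 CPM in B6, 0 in PWK BioRep698 and BioRep695 and 59.6 in the unnumbered library. Morc3 also varied in F1, with 2.75, 19.8 and 0 CPM in F1 4, 9 and the unnumbered library, and DBA had 10.9 CPM.

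In B6 DE, made from B6 EpiSCs, a larger share of the PWK-absent peaks than of all B6-open peaks had lower accessibility than in EpiSCs. In the table that holds DE, 560 of the 569 overlapped a peak by at least 1 bp, and 556 overlapping peaks were tested. Of these, 316 were lower in DE (56.8%) and 70 higher (12.6%) by edgeR with that same threshold. Over all B6-open peaks 38.2% were lower and 11.2% higher, and over all 113870 peaks tested 25.0% and 32.6%. The median log2 change was -1.18, against -0.46 for B6-open peaks and -0.01 for all peaks. Libraries did not overlap for 304 peaks lower and 64 higher in DE, together 66.2%, against 46.8% of B6-open and 53.8% of all peaks. The rule asks for high values in the EpiSC libraries of this comparison, so the count is read only beside that of B6-open peaks, and the difference was not tested. The share lower was 55.5% against 39.7% at 2 to 5 CPM, 58.7% against 40.8% at 5 to 10 CPM, 58.8% against 33.6% above that, and 57.3% against 43.8% for peaks over 500 bp from a start site. With B6 44 left out of the rule and of the fit, 491 of 869 (56.5%) were lower and 91 (10.5%) higher, against 40.2% and 9.27%. Where all 8 libraries had to have at least 10 counts, a filter that removes peaks low in DE, 175 peaks were tested, 28 were lower (16%) and 70 higher (40%), and the median was 0.24, so the balance turned. Over B6-open peaks 19.7% were then lower and 17.9% higher, with a median of -0.07.

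Of the 8 strongest PWK-absent peaks, 6 were lower in DE and 2 higher. They were picked for high values in the same EpiSC libraries, which favours lower calls in DE, so these tests do not support a direction for the group. The one on chromosome 17 had 28, 31.7, 26.5 and 43.5 CPM in EpiSC 1, 4, 44 and 51 and 0.823, 3.62, 1.72 and 1.73 in DE 2, 4, 44 and 51 (log2 change -3.99, SE 0.31, adjusted p = 2.41e-09 in edgeR). The one near Gm19855 had 26.7, 23.0, 27.0 and 27.9 CPM in EpiSCs and 5.35, 6.42, 6.15 and 3.17 in DE (-2.26, SE 0.23, adjusted p = 5.86e-08), and the one in Atg5 fell by 1.46. In these 3 all DE libraries lay below all EpiSC libraries. The one near Hmgb1l was higher in all DE libraries, with 46.7, 54.3, 53.1 and 61.4 CPM against 29.7, 24.5, 20.7 and 43.8 (0.85, SE 0.18, adjusted p = 0.000454). The one near Rp1 rose by 0.58, and it was not called with total library size as the scaling (0.36, adjusted p = 0.0824). It also lost its call without DE 4 (0.0770), DE 44 (0.0506) or EpiSC 1 (0.0650).

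**Figure D5:**
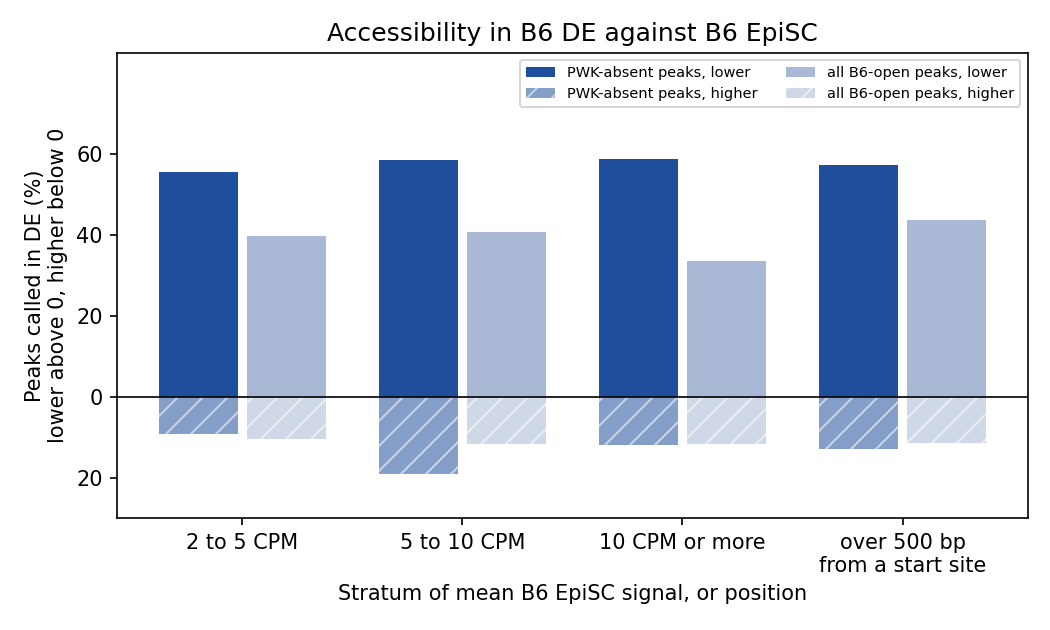
Share of peaks called lower (bars above 0) and higher (hatched bars below 0) in B6 DE against B6 EpiSC, in percent, for PWK-absent peaks (dark) and all B6-open peaks (light), by mean B6 EpiSC level and for peaks over 500 bp from a start site. The dark bars above 0 reach 55.5% to 58.8% and the light ones 33.6% to 43.8%.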

How the data were processed

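The deposited tables hold raw counts per peak and per Ensembl gene. Per the submitters' processing notes, the tools for ATAC-seq were fastp, Bowtie2, MACS2, featureCounts and DESeq2, those for RNA-seq Salmon, featureCounts and DESeq2, and the build mm10. Their roles, versions and the use of strand in counting are not given in the sources used here. From these counts, CPM of the column total was computed for ATAC-seq, and 17 columns of other series were not used. The members, gene lists and tests were chosen with earlier results of these data known.

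Genes were placed on RefSeq GRCm38.p6 by Ensembl identifier, or else by symbol or synonym (26493 of 29555 identifiers). A neighbour is a gene whose span, widened by 10 kb, holds the centre of a peak. Tests used edgeR 4.0.16 in R 4.3.3 (TMM, filterByExpr, robust quasi-likelihood fits, Benjamini-Hochberg over all features), with B6, PWK and F1 RNA in 1 fit, and were checked on simulated counts. CPM in tested comparisons refers to the scaled library size. Floors are 3 counts per library. Reads carry no molecular identifiers, so intervals cover counting error only. The smallest chi-square per feature between replicates was 2.77 for ATAC-seq and 9.71 for RNA-seq, so none was counted as a repeat.

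Named peaks are the 8 with the highest mean B6 CPM, the 5 longest runs (the last 2 taken from 18 runs of 2 by mean B6 CPM), those within 50 kb of a listed gene, and those with the highest DBA level or lowest DBA ratio. The other peaks at or under 3 counts in DBA, and the motifs, were chosen after values were seen. Named genes are up to 10 per direction, by size of log2 change, that were called, had no overlap between strains, a mean log2 CPM of at least 1 and no gene model name, and the genes of the named runs; D830030K20Rik was added for its promoter. Alternatives were other limits in the rule, scalings, filters, distances, DESeq2 1.42.0, and libraries left out. RNA of the DE samples was not used, and 1 peak low in DBA is not reported here.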

Additional observations from a re-analysis of the deposited data

Results flagged for a closer look

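Of 38 groups of 4 to 10 libraries checked for an outlying library, 2 were marked, and chance marks about 1 in 20 such groups. In both, B6 51 lay far from the other B6 RNA libraries. Ifi27l2a had 1.96 CPM in B6 51 and 3.20 to 3.49 CPM in the other 4. Gm10499, a gene model beside the run in the histocompatibility complex, had 0.231 CPM in B6 51 and 0.514 to 0.537 CPM in the other 4, and was higher in PWK.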

How the results depend on the processing

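The number of PWK-absent peaks followed the limits of the rule: 213 with 0 counts allowed in PWK, 975 with 5, 1479 with at least 1 CPM in B6 and 174 with at least 4. Leaving out 1 library gave 646 to 1377 peaks (895 without B6 44, 950 without PWK BioRep698 and 1377 without the unnumbered PWK library). The share at or under 3 counts in DBA was 3.25% with at least 1 CPM in B6, where that of all peaks then open was not computed. It ran from 0.924% to 12.1% with 1 library left out (12.1% without B6 44, 3.20% without the unnumbered PWK library). A log2 ratio under -1 in place of 3 counts gave 6.68%. The flanking share ran from 4.37% to 6.27% with 1 library left out, and 12.5% of the peaks had another within 100 kb. Neighbours within 50 kb gave 116 of 590 genes lower (19.7%) and 59 higher (10%) in PWK. Peaks at 0 counts in PWK gave 18 (22.0%) and 6 (7.32%) of 82 genes. Over all genes tested in that fit 14.5% were lower and 12.0% higher. At least 10 counts in every library gave 42 lower and 10 higher. With 1 library left out, 37 to 60 genes were lower and 12 to 29 higher. For these refits the shares over all genes were not computed. Of the 74 genes called, 72 were among the 80 that DESeq2 called, and without PWK BioRep695 the 49 calls were all among the 74. Peaks chosen without B6 44 gave 32 genes higher in PWK and, with that library also out of the fit, 491 peaks lower in DE. In DE, at least 10 counts in every library left 28 lower and 70 higher, and 298 to 337 were lower and 57 to 67 higher with 1 library left out. Total library size as the scaling moved the median change of all peaks in DE to -0.22 and that of the PWK-absent ones to -1.40. No value changed sign, apart from that median under the filter of 10 counts in every library.

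The shared numbers 4, 44 and 51 did not pair the EpiSC and DE libraries (correlations of their deviations 0.02, -0.01 and 0.05). With the replicate number as a block over these 6 libraries, 236 peaks were lower and 51 higher in DE, against 280 and 55 in the same libraries without the block, and the rise near Rp1 was not called (0.53, adjusted p = 0.0636). PWK and B6 share no numbers. Low depth in B6 44 and PWK BioRep698 limits what 3 counts can show.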
